A study of Mus musculus with 10 samples.

Results

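Retinal ganglion cells (RGCs) receive input from bipolar and amacrine cells and send long axons out of the eye, and crushing the nerve cuts those axons. A small set of genes is commonly used to recognise them. The LIM-homeodomain factor *Isl1* and the POU-domain factors *Pou4f1*, *Pou4f2* and *Pou4f3* (also called Brn3a, Brn3b and Brn3c) act in RGC specification and maintenance, *Rbpms* encodes an RNA-binding protein that marks RGCs as a class, and *Slc17a6* encodes the vesicular glutamate transporter VGLUT2. *Sncg*, *Nefl* and *Tubb3* encode gamma-synuclein, the light neurofilament subunit and the neuronal beta-tubulin recognised by the Tuj1 antibody, and *Thy1* encodes the surface antigen Thy1.2 by which the cells were sorted. These 10 genes were chosen by symbol, and all 10 were found among the 53974 genes of the RNA-seq table. Of the 16600 accessible regions of the ATAC-seq table, 1 lay within 1000 bp of an end of any of the 10 genes. *Isl1* is also made by bipolar and amacrine cells, and *Thy1* by T cells, so neither is particular to RGCs.

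The study asked how loss of *Arid1a*, a subunit of the BAF chromatin remodelling complex, alters injured RGCs. All samples came from 8- to 10-week-old C57BL/6 mice carrying floxed *Arid1a* alleles on both chromosomes, and all eyes received an intravitreal AAV2 virus and an optic nerve crush 2 weeks later. The WT group (genotype label Arid1a fl/fl) received AAV2-CMV-GFP and the cKO group (genotype label Arid1a del/del) received AAV2-CMV-Cre, and 4 to 5 retinas were pooled per sample. The CMV promoter is not restricted to RGCs, and no uninjured group was compared here. Thy1.2-positive retinal cells were sorted 3 days after the crush, giving 3 RNA-seq libraries per group and 2 ATAC-seq libraries per group. RNA levels are given in TPM, the share of all transcripts in a library scaled for transcript length, and no read depth comes with it.

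The labels were checked first. *Arid1a* stood at 18.8, 11.7 and 14.1 TPM in the WT libraries and at 18.8, 27.9 and 25.001 TPM in the cKO libraries. The level of the targeted gene did not fall with the cKO label (log2 fold change 0.66 ± 0.28, SE, limma adjusted p = 0.274), and a TPM over the whole gene does not show whether the floxed exons were lost. In retinal sections, the paper reported less ARID1A protein in Tuj1-positive cells after AAV2-Cre than after AAV2-GFP. That staining was read in Tuj1-positive cells, whereas the TPM cover all sorted cells. WT and cKO below mean the libraries that carry these labels, and every direction is drawn between the labels. Correlations between libraries ranged from 0.862 to 0.953 within groups and from 0.851 to 0.918 between groups, across genes.

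Of the 10 genes, *Pou4f2*, *Pou4f3*, *Slc17a6* and *Rbpms* were low or near 0 in all 6 libraries. *Pou4f2* was listed at 0 in 5 libraries and at 0.143 TPM in cKO replicate 3, and *Pou4f3* was listed at 0 in 5 libraries and at 0.0532 TPM in WT replicate 1. *Slc17a6* ranged from 0.593 to 1.57 TPM and *Rbpms* from 1.82 to 6.43 TPM. *Thy1*, *Isl1* and *Nefl* were higher, with means of 88.7, 77.0 and 15.6 TPM. All 10 genes summed to 140 to 190 TPM in WT and 220 to 245 TPM in cKO. By contrast, 9 rod markers summed to between 5178 and 20513 TPM, and *Gnat1*, the alpha subunit of rod transducin, averaged 5969 TPM. The libraries are therefore called Thy1.2-sorted retinal cells here, since the levels of the 10 genes do not set RGCs apart as the main source of the RNA. The paper reported Tuj1 staining in almost all of the sorted cells, a measure of protein and not of RNA in these libraries. In bulk samples such as these, fewer cells of a type and less RNA per cell cannot be told apart.

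**Figure D1:**
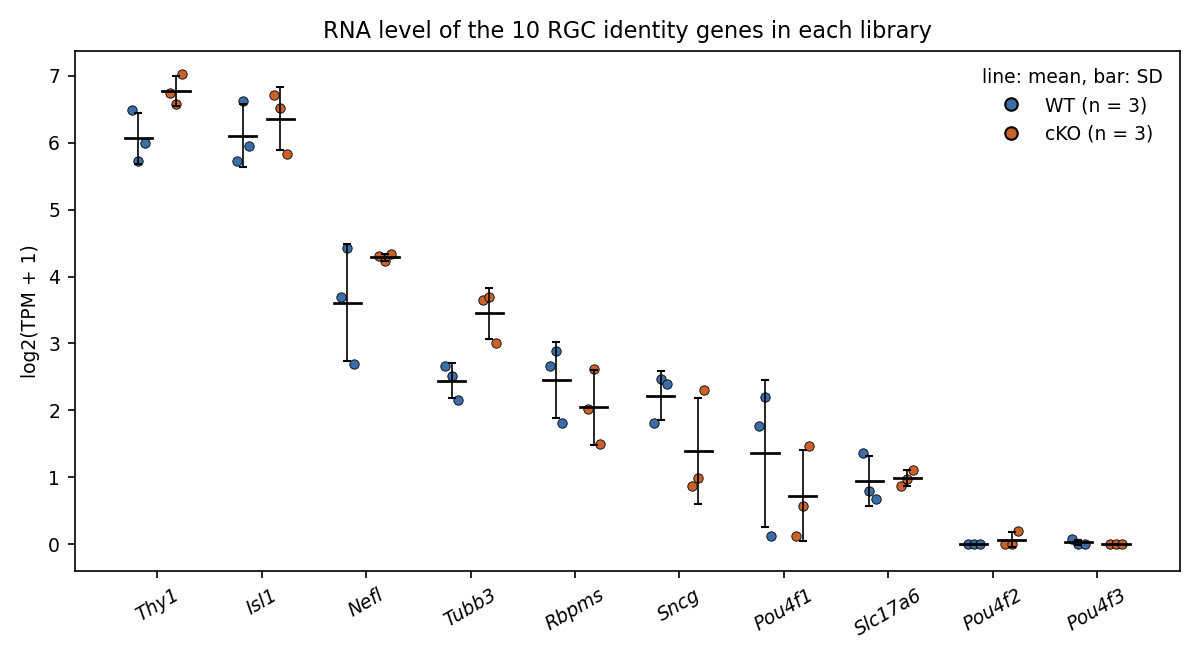
RNA level of the 10 RGC identity genes, as log2(TPM + 1), in each of 3 WT (blue) and 3 cKO (orange) libraries, with the group mean (line) and SD (bar). *Thy1* and *Isl1* stood above the other 8 genes, and *Pou4f2* and *Pou4f3* lay at or near 0 in every library.

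The 10 genes spanned a wide range of levels. In order of mean TPM over all libraries they were *Thy1* (88.7), *Isl1* (77.0), *Nefl* (15.6), *Tubb3* (7.33), *Rbpms* (4.04), *Sncg* (2.84), *Pou4f1* (1.40), *Slc17a6* (0.975), *Pou4f2* (0.0238) and *Pou4f3* (0.00887). The ranges over the 6 libraries separated *Isl1* from *Nefl*, with a ratio of mean TPM of 4.93, and *Slc17a6* from *Pou4f2*. All other neighbours in the order overlapped across the libraries. *Thy1* had a higher mean level than *Isl1* by a ratio of only 1.15 and was the higher of the pair in 5 of 6 libraries.

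The promoter sequences of 6 of the 10 genes were available from RefSeq (GRCm38.p6), as windows of 300 bases from 250 bases before to 50 bases after the transcription start. The first pair below belongs to the members with an ATAC-seq peak over the start, and the second pair to POU factors with none. Capitals mark GC boxes (GGGCGG) and CCAAT boxes (CCAAT), read on both strands, and each sequence runs 5′ to 3′ along the gene. The *Tubb3* window is chr8:123411303-123411602 on the plus strand, and the minus-strand windows are chr13:116309639-116309938 for *Isl1*, chr8:78436598-78436897 for *Pou4f2* and chr14:104467950-104468249 for *Pou4f1*.
Tubb3: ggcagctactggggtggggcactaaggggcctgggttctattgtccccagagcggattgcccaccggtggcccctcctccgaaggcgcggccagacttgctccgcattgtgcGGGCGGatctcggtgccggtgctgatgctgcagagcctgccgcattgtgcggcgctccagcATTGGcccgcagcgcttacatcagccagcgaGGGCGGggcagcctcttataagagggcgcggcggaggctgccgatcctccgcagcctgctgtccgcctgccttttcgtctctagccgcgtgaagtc
Isl1: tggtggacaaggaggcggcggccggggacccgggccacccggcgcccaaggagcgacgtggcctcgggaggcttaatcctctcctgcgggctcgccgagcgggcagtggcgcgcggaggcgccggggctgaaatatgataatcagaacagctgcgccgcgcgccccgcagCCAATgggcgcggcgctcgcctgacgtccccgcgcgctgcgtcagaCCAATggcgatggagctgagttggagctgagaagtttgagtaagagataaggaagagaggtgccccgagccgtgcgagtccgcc
Pou4f2: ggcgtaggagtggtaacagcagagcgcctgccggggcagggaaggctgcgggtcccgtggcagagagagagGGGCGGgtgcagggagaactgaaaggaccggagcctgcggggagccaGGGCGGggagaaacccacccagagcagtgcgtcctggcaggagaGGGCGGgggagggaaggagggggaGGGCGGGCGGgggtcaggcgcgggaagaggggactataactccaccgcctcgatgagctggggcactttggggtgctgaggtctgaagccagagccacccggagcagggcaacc
Pou4f1: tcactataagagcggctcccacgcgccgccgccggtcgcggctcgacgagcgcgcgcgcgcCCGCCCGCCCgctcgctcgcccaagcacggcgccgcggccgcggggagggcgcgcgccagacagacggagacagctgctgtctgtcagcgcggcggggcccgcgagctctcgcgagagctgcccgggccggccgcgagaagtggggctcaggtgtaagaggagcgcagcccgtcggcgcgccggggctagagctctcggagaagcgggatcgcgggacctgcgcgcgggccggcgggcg

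These windows were rich in G and C. The GC content was 67.3% at *Tubb3*, 69.0% at *Isl1*, 69.7% at *Pou4f2* and 78.3% at *Pou4f1*, against a median of 52.7% over 32851 promoter windows. The *Pou4f1* window held 57 CpG dinucleotides, where the median window held 7. *Pou4f2* carried 5 GC boxes, of which the last 2 overlap, and *Tubb3* carried 2 GC boxes and 1 CCAAT box. *Isl1* carried 2 CCAAT boxes, 80 and 34 bases before the start. GC boxes occurred in 35.7% and CCAAT boxes in 37.4% of all windows. Other motifs searched were the TATA box (TATAAA, in 13.6% of windows), the cAMP response element (TGACGTCA, 1.79%), AP-1 (TGANTCA, 7.81%), an ISL1 motif (CTAATG, 7.36%), ETS (CCGGAAG, 8.86%), the E-box (CANNTG, 72.3%) and the EBF palindrome (0.904%). Of these, only the E-box occurred in the 6 members with a window, at *Slc17a6*, *Isl1*, *Sncg* and *Pou4f1*. A POU4F motif (TAATTAAT), present in 0.852% of windows, was found only at the second *Slc17a6* promoter among the 6 members with a window. The stretch chr7:51624538-51624577 shows it in capitals, on the strand opposite to the letters of the motif as written.
Slc17a6: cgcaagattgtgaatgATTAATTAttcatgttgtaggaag

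*Tubb3* had the largest log2 fold change among the members in the fit on log2(TPM + 1). With a pseudocount of 0.1 that of *Sncg* was larger in size (-1.22 against 1.15), as it was without cKO replicate 3 (-1.29 against 1.23). After rescaling by the median of ratios *Sncg* was again larger in size (-0.94 against 0.86). Without WT replicate 2 *Nefl* was larger (1.09 against 1.04), and without WT replicate 3 *Pou4f1* was larger in size (-1.26 against 0.86). By the ratio of group means *Pou4f1* also differed more (0.386). The levels of *Tubb3* were 5.32, 4.71 and 3.45 TPM in the WT libraries and 11.5, 12.0 and 7.05 TPM in the cKO libraries. Every cKO library stood above every WT library. The group means were 4.49 ± 0.955 TPM (SD, n = 3) in WT and 10.2 ± 2.72 TPM (SD, n = 3) in cKO, a ratio of 2.26. The log2 fold change of *Tubb3* was 1.01 ± 0.31 (SE), with a 95% interval from 0.27 to 1.75 and a limma adjusted p of 0.175 over all genes.

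*Thy1*, the sorting antigen, was measured at 88.5, 51.9 and 62.7 TPM in WT and at 106, 94.4 and 129 TPM in cKO. The groups did not overlap, with the cKO libraries higher. Their means were 67.7 ± 18.8 and 110 ± 17.6 TPM (SD, n = 3 each), and the log2 fold change was 0.71 ± 0.26 (SE, 95% interval 0.09 to 1.33, limma adjusted p = 0.223). When the libraries were rescaled by the median of ratios the log2 fold change of *Thy1* was 0.54 and the groups overlapped. Since cells were selected for the Thy1.2 protein, the level of this gene is also tied to the sort. The T cell gene *Cd3e*, part of the T cell receptor complex, stood at 0.94 to 1.15 of the *Thy1* level in WT and at 0.0708 to 0.156 of it in cKO, and the part of T cells in the *Thy1* values was not tested.

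The other structural genes did not separate the groups. *Nefl* was 12.0, 20.6 and 5.47 TPM in WT and 18.8, 17.7 and 19.1 TPM in cKO. The cKO libraries lay close together within the wider WT range, and the log2 fold change of *Nefl* was 0.68 ± 0.44 (SE, limma adjusted p = 0.444). *Sncg* was 2.49, 4.55 and 4.23 TPM in WT and 0.827, 0.989 and 3.96 TPM in cKO. Replicates 1 and 2 of cKO lay below all WT libraries and replicate 3 lay among them, with a log2 fold change of -0.83 ± 0.45 (SE, limma adjusted p = 0.372). Within each pair of equal replicate numbers *Sncg* was lower in cKO, and with the replicate block its limma adjusted p was 0.264. The labels do not pair the libraries, and how many of all genes were lower in every such pair was not counted.

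*Isl1* was 51.9, 98.0 and 60.9 TPM in WT and 104, 91.1 and 55.8 TPM in cKO, with overlapping groups and a log2 fold change of 0.26 ± 0.34 (SE, limma adjusted p = 0.719). *Rbpms* was 5.33, 6.43 and 2.51 TPM in WT and 3.07, 5.105 and 1.82 TPM in cKO, with a log2 fold change of -0.41 ± 0.43 (SE, limma adjusted p = 0.636). *Rbpms* too was lower in cKO within each of the 3 pairs of equal replicate numbers, with a limma adjusted p of 0.417 under the replicate block. As for *Sncg*, the labels do not give these pairs, and the share of all genes lower in every pair was not counted. *Pou4f1* was 2.39, 3.60 and 0.0838 TPM in WT and 0.0895, 0.491 and 1.76 TPM in cKO. Its highest library exceeded its lowest by a ratio of 43.0, and low and high libraries occurred under both labels (log2 fold change -0.64 ± 0.61, SE, limma adjusted p = 0.609). *Slc17a6*, at 1.57, 0.736 and 0.593 TPM in WT and 0.835, 0.957 and 1.16 TPM in cKO, fell below the filter of 1 TPM in at least 3 libraries, as did *Pou4f2* and *Pou4f3*. Without that filter the log2 fold change of *Slc17a6* was 0.04, with a 95% interval from -0.60 to 0.68.

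Of the 10 members, 7 passed the filter and were tested among 17555 genes. None passed an adjusted p of 0.05 by limma, against 0.0057% of all genes called higher and 0% called lower in cKO. The single gene called was *Gm47101*, named after its values were seen, which was listed at 0 in all WT libraries. The paper used DESeq2 on Salmon estimates and reported many more changed genes, most of them lower in cKO. The reason for this difference from the limma fit on TPM was not tested. At an unadjusted p under 0.05, 2 members (*Thy1* and *Tubb3*) were higher and 0 were lower, where 11.9% of all tested genes were higher and 6.45% lower. The groups did not overlap for the same 2 members, both higher in cKO, where 18.7% of all tested genes separated higher and 7.18% lower. With 3 libraries against 3, the exact two-sided permutation test reaches no p below 0.1, and *Thy1* and *Tubb3* were at that limit. The exact permutation p was 0.2 for *Sncg*, 0.4 for *Nefl* and *Rbpms*, 0.5 for *Pou4f1* and 0.7 for *Isl1*. The members below an unadjusted p of 0.05 changed with the libraries kept. They were *Thy1* and *Tubb3* without WT replicate 1, *Tubb3* and *Nefl* (higher) without WT replicate 2, and *Tubb3* and *Sncg* (lower) without cKO replicate 3. Without WT replicate 3 it was *Pou4f1* (lower) alone, without cKO replicate 2 *Thy1* alone, and without cKO replicate 1 none. The median log2 fold change was 0.26 over the tested members and 0.16 over all tested genes, and rescaling by the median of ratios moved the latter to 0.01 and the former to 0.09. Leaving out 1 library moved the median of the members between 0.07 (without cKO replicate 1) and 0.56 (without cKO replicate 3), and it was 0.05 over all 10 members with no filter. Before this rescaling, genes higher in cKO made up 64.9% of those with an unadjusted p under 0.05, and after it 44.2%.

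**Figure D2:**
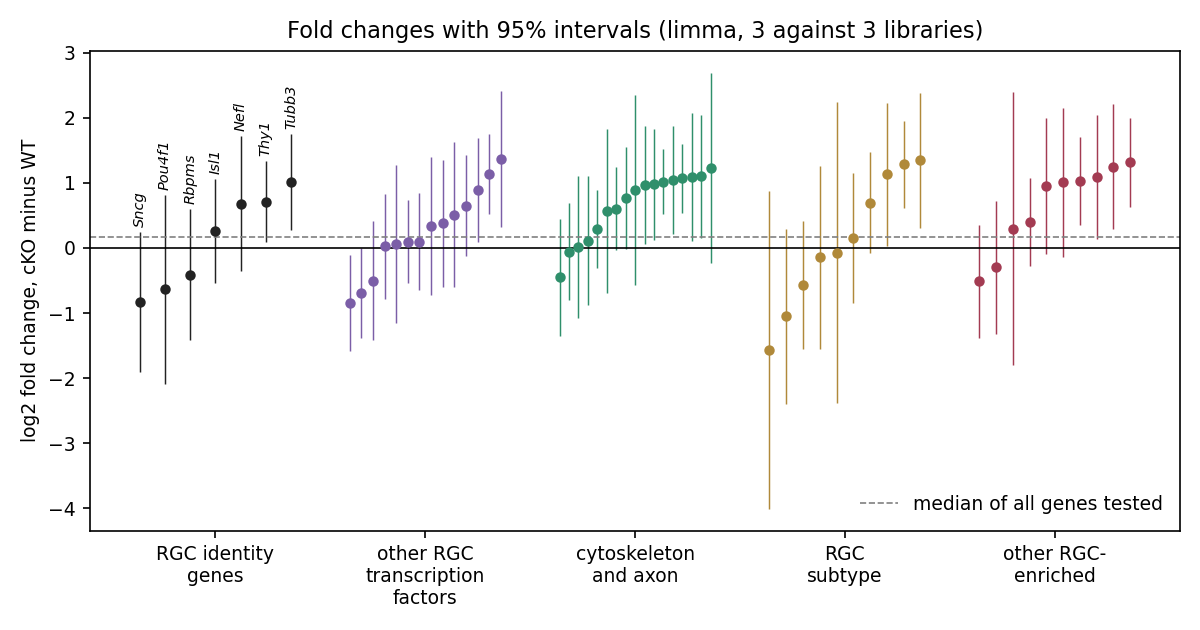
Log2 fold change (cKO minus WT) with 95% intervals for each tested gene of 5 RGC lists, ordered by size within a list. The intervals of *Tubb3* and *Thy1* lay above 0, those of the other 5 tested members spanned 0, and the dashed line marks the median of all genes tested (0.16).

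Other genes linked to RGCs were compared as 4 lists, and none of their genes passed an adjusted p of 0.05 (limma). Among 26 further RGC transcription factors, 14 were tested, and at an unadjusted p under 0.05 there were 3 higher and 2 lower in cKO (median log2 fold change 0.22). *Ebf1*, a helix-loop-helix factor, was 25.8, 15.3 and 20.9 TPM in WT and 43.5, 51.8 and 42.3 TPM in cKO. The forkhead factor *Foxp1* was 36.2, 21.8 and 42.3 TPM in WT and 19.5, 13.9 and 19.6 TPM in cKO. Both separated the groups, in opposite directions, while the HMG-box factor *Sox4* overlapped at 12.4 to 19.9 TPM. *Foxp1* and *Satb1*, the lower pair, are also expressed in T cells, whose marker sum was lower in cKO as given below. The part of T cells in the values of this pair was not tested, nor was that of other cells in the higher factors.

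Of 18 genes of the neuronal cytoskeleton and axon, 17 were tested, and 7 were higher and 0 lower at an unadjusted p under 0.05 (median log2 fold change 0.89). *Map1b*, a microtubule-associated protein, was 130, 164 and 154 TPM in WT and 305, 353 and 256 TPM in cKO, and the groups did not overlap. *Tuba1a* and *Sncb*, which encode an alpha-tubulin and beta-synuclein, were the most abundant of the list and overlapped between the groups. After rescaling by the median of ratios, 2 genes of the list rather than 7 were at an unadjusted p under 0.05, with a median of 0.73. Over all 17555 tested genes 3006 were at that p after rescaling, 44.2% of them higher in cKO. These genes are used by neurons in general.

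Of 16 RGC subtype genes, 10 were tested, and 3 were higher and 0 lower at an unadjusted p under 0.05. Their median log2 fold change was 0.04, and it was -0.11 after rescaling by the median of ratios. The highest were *Cdhr1*, a photoreceptor cadherin as well, *Cartpt*, a neuropeptide precursor, and *Calb2*, the calcium-binding protein calretinin. *Cdhr1* was 143, 137 and 190 TPM in WT and 268, 409 and 494 TPM in cKO, and *Calb2* also separated the groups. All 10 other RGC-enriched genes were tested, with 4 higher and 0 lower at an unadjusted p under 0.05 and a median log2 fold change of 0.98. *Chrna6*, a nicotinic receptor subunit, was 22.3, 25.9 and 24.8 TPM in WT and 67.3, 55.7 and 34.7 TPM in cKO. The cell adhesion gene *L1cam* was also higher in every cKO library, and the nicotinic subunit *Chrnb3* overlapped.

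The summed markers of some other cells separated the groups, and those of others overlapped. The 9 rod markers summed to 5178 to 7587 TPM in WT and 11534 to 20513 TPM in cKO, and all 9 separated the groups, higher in cKO (8 of 9 after rescaling by the median of ratios). Cone markers summed to 1999 to 2502 TPM in WT and 3517 to 6125 TPM in cKO, and amacrine markers to 222 to 429 and 569 to 1216 TPM. Of the 7 amacrine markers only 2 separated the groups, and the most abundant, the glycine transporter *Slc6a9*, alone was 83.2 to 252 TPM in WT and 449 to 741 TPM in cKO. The sums of bipolar markers overlapped, at 962 to 1330 TPM in WT and 1235 to 2015 TPM in cKO. By gene, all 8 had a fold change above 0, and 2 separated the groups, higher in cKO. The 14 T cell markers were all lower in cKO, 13 of them at an unadjusted p under 0.05, with sums of 996 to 2999 TPM in WT and 260 to 638 TPM in cKO. Myeloid markers summed to 2101 to 3424 TPM in WT and 886 to 1207 TPM in cKO. Of the 10 myeloid markers 5 separated the groups, lower in cKO, and 1 had a fold change above 0. The most abundant, *Lyz2*, alone was 1069 to 1362 TPM in WT and 307 to 458 TPM in cKO. B cell markers summed to 29.6 to 106 TPM in WT and 8.86 to 18.3 TPM in cKO. The sums of Mueller glia and astrocyte markers overlapped, at 13886 to 26167 and 10319 to 24756 TPM. So did those of endothelial and pericyte markers (391 to 1058 and 276 to 775 TPM) and erythrocyte markers (94.3 to 1353 and 130 to 234 TPM). By gene, all 9 glial markers had a fold change below 0, and 1 separated the groups, lower in cKO. All 6 tested endothelial and pericyte markers were below 0, and 2 separated, lower in cKO. All 5 erythrocyte markers were below 0 and 0 separated. None of the markers in these 10 lists was at 0 in all 6 libraries. The part of these cells in the values of the RGC genes was not tested.

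**Figure D3:**
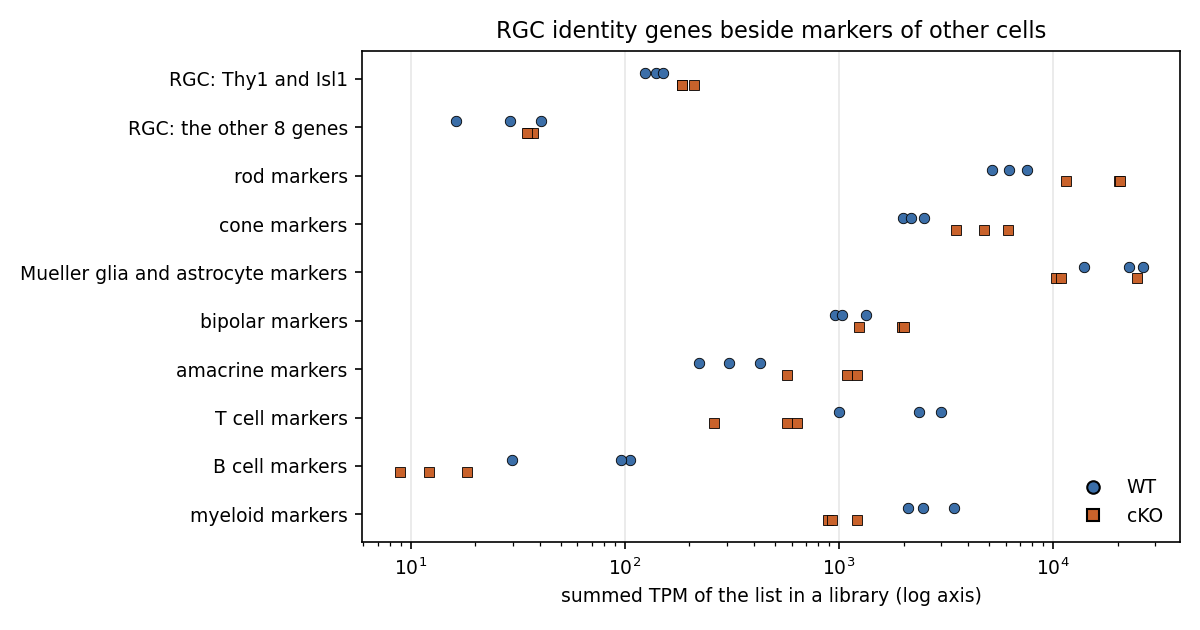
Summed TPM of *Thy1* and *Isl1*, of the other 8 RGC identity genes and of 8 marker lists, on a log axis, with 1 point per library (blue circles WT, orange squares cKO). The other 8 RGC identity genes summed to between 16.3 and 40.6 TPM, while the rod list never summed to less than 5178 TPM and the Mueller glia and astrocyte list never to less than 10319 TPM.

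The genes whose profiles lay nearest to the members were sought among 12609 genes outside the lists with a mean of at least 5 TPM. The distance is the root mean square difference of the centred log2 levels over 6 libraries. It was not tested and does not show that a gene is related to RGCs. The mean profile joins 4 tested members with a fold change above 0 and 3 below it. *Slc17a6*, below the filter, had a profile with an SD of only 0.246. Nearest to the mean of the 7 tested members were *Nlk* (0.0904), *Ubp1* (0.106), *B230307C23Rik* (0.116), *Ndufa6* (0.119) and *Sf3a2* (0.120). For *Rbpms* they were *Mrps24* (0.105), *Otud1* (0.134) and *Zc3h14* (0.168), and for *Slc17a6* they were *Tor1aip1* (0.0749), *Slc50a1* (0.103) and *Gm43377* (0.104). For *Thy1* they were *D930016D06Rik* (0.0902), *Gm43263* (0.128) and *Ift80* (0.136).

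ATAC-seq marks DNA open to the Tn5 transposase. Only *Tubb3* among the 10 members had a region of the table at an end, where 51.5% of 15518 tested genes with a position had one. The share was 30.7% of tested genes with a mean under 5 TPM, a class that holds 3 of the members, and 20.6% of all 49997 genes with a position, which include the 3 members not tested. The region, chr8:123411184-123411821, covered the *Tubb3* start from 369 bases before to 268 bases after it and also lay within 1000 bp of *Mc1r*, which encodes the melanocortin 1 receptor. The authors' mean for it was 3.65 in WT and 2.71 in cKO on the log2 scale of normalised reads, a difference of -0.94. Over all regions the median difference was -1.57, and 59.8% were lower in cKO by at least 1, which the *Tubb3* region was not. Among regions at gene ends, its own class, the median was -2.50 and 7118 of 8002 were lower by at least 1, and away from gene ends the median was -0.32. At this gene the RNA groups separated with cKO higher, while the region mean was lower in cKO, and that mean has no replicate error here.

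The 2 WT peaks under this region met only at their edges. The peak of WT replicate 1, chr8:123411184-123411525, covered 223 of the 300 bases of the printed *Tubb3* window, and that of WT replicate 2, chr8:123411506-123411821, covered 97. They shared 20 bases. Neither cKO library had a peak there. Few genes did: 13.6% of all tested genes had a peak of cKO replicate 1 at an end, 13.9% of cKO replicate 2 and 2.27% of both. *Tubb3* was the only member with a peak of both WT libraries at an end, as had 51.6% of all tested genes, 30.4% of those with a mean under 5 TPM and 20.1% of all genes with a position.

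Peaks of any library lay within 1000 bp of an end of 5 of the 10 members, where 77.7% of tested genes with a position had one. The share was 62.0% of tested genes with a mean under 5 TPM and 46.8% of all genes with a position, near that of the members. At *Isl1* a peak of WT replicate 1, chr13:116309529-116309824, spanned the start and covered 186 bases of the printed window, including both CCAAT boxes. *Slc17a6* had a peak of WT replicate 1 at its 3′ end (chr7:51670685-51671016), and *Sncg* had a peak of cKO replicate 1 at its 3′ end (chr14:34370174-34370387). *Thy1* had a peak of cKO replicate 2 at its higher-coordinate end (chr9:44048571-44048965). Each of these 4 was seen in 1 library, and none overlapped a peak of another library. No peak of any library lay at an end of *Rbpms*, *Nefl*, *Pou4f1*, *Pou4f2* or *Pou4f3*.

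**Figure D4:**
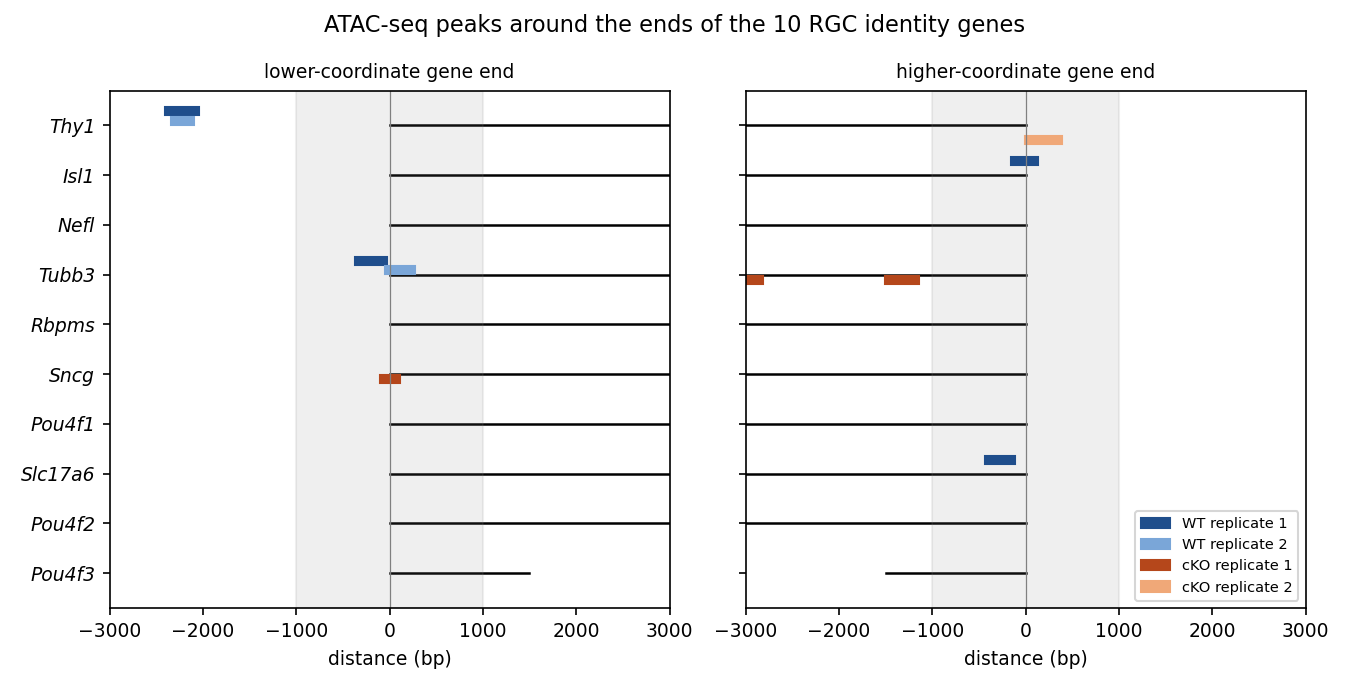
ATAC-seq peaks of the 4 libraries (coloured bars) by distance in bp from the lower-coordinate (left) and higher-coordinate (right) end of each RGC identity gene, with the gene body as a black line and the 1000 bp window in grey. The only peaks of more than 1 library within the window were the WT pair at *Tubb3*.

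Within the members' gene spans and 1000 bp on either side there were 23 peaks, and 2 of them overlapped a peak of another library, the *Tubb3* pair. *Rbpms*, whose span of 147280 bp also overlaps *Gm51528*, held 10 of the 23, and *Slc17a6*, which overlaps *Gm33136*, held 6. Farther out, a region at chr9:44040980-44041338, 2046 bp below the lower-coordinate end of *Thy1*, was covered by peaks of both WT libraries and of no cKO library. Of all 16600 regions, 10259 had peaks of both WT libraries, and how many of those lacked a cKO peak was not counted. The authors' means at the region near *Thy1* were 3.61 in WT and 1.82 in cKO on the log2 scale, a difference of -1.79, and it also lay at *Gm39323*. *Isl1* and *Thy1* had no region within 1000 bp although their mean TPM exceeded 50, a level at which 63.5% of tested genes had one. Over whole libraries, 13.6% and 24.4% of the peaks of the WT pair overlapped a peak of the other, against 3.39% and 2.77% in the cKO pair.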

How the data were processed

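Retinal cells positive for Thy1.2 were profiled by RNA-seq (6 libraries) and ATAC-seq (4 libraries). The authors deposited RNA levels as TPM, estimated with Salmon 1.0.0 and summed per gene on GENCODE annotation of GRCm38, so the read depth behind a value is unknown. For ATAC-seq the authors deposited peaks per library (Bowtie2 2.3.5.1 and MACS2 2.2.5 per the submitters' processing notes) and a table of regions with the mean log2 normalised reads of each group. That table also holds the authors' own fold changes, p-values and FDR, which were not used.

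Genes with at least 1 TPM in at least 3 libraries were tested on log2(TPM + 1) with limma 3.58.1 (R 4.3.3), with a mean-variance trend and Benjamini-Hochberg adjustment over all 17555 genes. The added 1 shrinks the fold changes of genes with low TPM. The test was checked on simulated data with log2 changes larger than those of the members. That check does not show how often changes of the members' size would be found. Single genes were also tested by an exact permutation test over the libraries. Samples were grouped by title. Nothing in the labels says whether samples of a group came from separate mice, beyond the pooling of retinas, so p-values measure the spread between these samples. Samples with the same replicate number deviated together (r = 0.334, 0.101 and 0.425 across genes for replicates 1, 2 and 3), although WT replicate 1 with cKO replicate 2 gave 0.193, so a fit with the replicate number as a block was an alternative, as were other pseudocounts, filters and scaling and leaving out each library.

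Gene positions and promoter windows came from RefSeq (GRCm38.p6), and a peak or region was placed at a gene when it came within 1000 bp of either end. Overlaps of 1 bp or more were counted. The region table gives 1 mean per group, so no test of it was possible. The members and gene lists were chosen with earlier results of these data known. Named genes were all members, Arid1a, the 3 tested genes of highest mean TPM in each further RGC list with any that passed the threshold, up to 3 markers of highest mean TPM per cell type list, and the nearest profiles. Satb1, Cd3e and Gm47101 fall outside this rule and were chosen after their values were seen. One marker fixed for a cell type list is not reported here, and the sums leave it out.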

Additional observations from a re-analysis of the deposited data

How the results depend on the processing

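All 78 alternative log2 fold changes of the 7 tested members kept their direction and stayed above the adjusted p of 0.05 (limma). *Tubb3* ranged from 0.86 to 1.23, with adjusted p from 0.118 to 0.517, and *Thy1* from 0.54 to 0.92, with adjusted p from 0.177 to 0.504. Leaving out single libraries moved the others more, *Nefl* from 0.22 to 1.09, *Isl1* from 0.07 to 0.52, *Rbpms* from -0.73 to -0.14, *Sncg* from -1.29 to -0.57 and *Pou4f1* from -1.26 to -0.34. With the replicate number as a block, the adjusted p was 0.118 for *Tubb3* and 0.177 for *Thy1*, so the block changed no member's call, while genes called lower in cKO went from 0 to 1. Without the variance trend, 4 genes rather than 1 were called higher. Leaving out single libraries gave 0 to 1 genes called higher, 0 to 1 called lower, and 0 to 2 members at an unadjusted p under 0.05, which were not the same members from fit to fit. Of the 16938 to 17167 genes tested in these fits, 1675 to 3502 were at an unadjusted p under 0.05. In these fits *Thy1* passed in 2 of 6 and *Tubb3* in 3 of 6. Rescaling by the median of ratios left 1 member (*Tubb3*) rather than 2 at an unadjusted p under 0.05, and 1 rather than 2 with groups that do not overlap. In that fit 3006 of 17555 tested genes were at an unadjusted p under 0.05, 44.2% of them higher in cKO. How many of all genes then separated the groups was not counted. With a mean of at least 5 TPM, 4 members were fitted, with a median log2 fold change of 0.70. The cause of these shifts was not tested, other than that the last fit held fewer members.

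Within 3000 bp of an end, 2 members had a region and 1 region was lower in cKO by at least 1. Leaving out single ATAC-seq libraries gave 3 to 5 members with a peak at an end, the lowest without WT replicate 1. A reciprocal overlap of 50% left 1 of the 2 WT peaks at the *Tubb3* region. For the accessible regions, no paired analysis was possible because only 1 mean per group is given. Levels in TPM come with no read depth, so for the genes listed at 0 no upper limit can be given.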
